A study of Tupaia belangeri chinensis with 12 samples.

Results

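The 10 genes described here are DLX1, DLX2, DLX5, DLX6, GSX2, SP8, SP9, GAD1, GAD2 and LHX6, chosen by name as genes of the subpallial and interneuron lineage. Each symbol had 1 entry among the 81414 gene IDs kept in the deposited expression tables, and all 10 genes were among the 14101 genes that passed the filter on low values. The samples came from fetuses of the Chinese tree shrew (Tupaia belangeri chinensis), a small mammal related to primates, whose cortical layers were cut by laser from Nissl-stained frozen sections. The labels give day 37 of gestation, whereas the names of the tables carry 35. Each of 4 layers gave 3 libraries of poly(A) RNA, 12 in all. From the ventricle outward they are VZ, the ventricular zone that holds the radial glia; ISVZ, the inner part of the subventricular zone; OSVZ, its outer part; and CP, the cortical plate of postmitotic neurons. No strain, genotype or treatment is named for any layer, and nothing in the labels ties a library to an animal. The p-values therefore measure the spread between these libraries, which may be technical.

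Cortical inhibitory interneurons are born outside the cortex, in the ganglionic eminences of the subpallium, and reach it by tangential migration, with one stream running deep through the subventricular zone. GSX2 acts early in progenitors of the lateral and caudal eminences, and the DLX homeobox genes act next, as progenitors turn into postmitotic GABAergic neurons. SP8 and SP9 are zinc finger factors of lateral and caudal eminence derivatives, LHX6 is the LIM homeobox factor of interneurons from the medial eminence, and GAD1 and GAD2 encode the glutamic acid decarboxylases that make GABA. Excitatory neurons of the same layers arise locally from pallial progenitors that use other factors, among them PAX6, EOMES and NEUROD6. In RNA from pieces of tissue, fewer cells of a type and less RNA per cell cannot be told apart.

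Levels are given as scaled FPKM, fragments scaled to transcript length and to the library's mapped fragments, after 1 scaling factor per library (0.947 to 1.063). The summed FPKM of a library ran from 244666 to 276629, and relative depth, judged from the width of the deposited confidence bounds, from 0.686 in VZ 1 to 1.56 in OSVZ 3 times the geometric mean of the 12. Known layer genes, chosen after their values were seen, separated the VZ and CP libraries as labelled. SOX2, a factor of neural progenitors, was at 156, 158 and 156 in VZ and at 6.63, 6.68 and 3.92 in CP. Between them it was at 70.8, 126 and 122 in ISVZ and at 40.9, 44.8 and 40.8 in OSVZ. The borders of ISVZ with VZ and OSVZ were not tested. MEF2C, a factor of postmitotic cortical neurons, was at 164, 142 and 138 in CP and at most 19.3 in the other layers. The VZ libraries differed in choroid plexus genes, whose summed level was 560.2, 2694 and 43.9, against 0.478 to 52.6 in the other layers.

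Of the 10 genes, 9 differed among the 4 layers at an adjusted p under 0.05 (limma F test with Benjamini-Hochberg adjustment), where 51.8% of all genes tested did. The exception was GAD1. In these 9 genes VZ and ISVZ were the higher layers, OSVZ was lower and CP was lowest. The order of the means was ISVZ, VZ, OSVZ, CP for 8 of the 10 genes, and VZ, ISVZ, OSVZ, CP for DLX2 and GSX2.

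**Figure D1:**
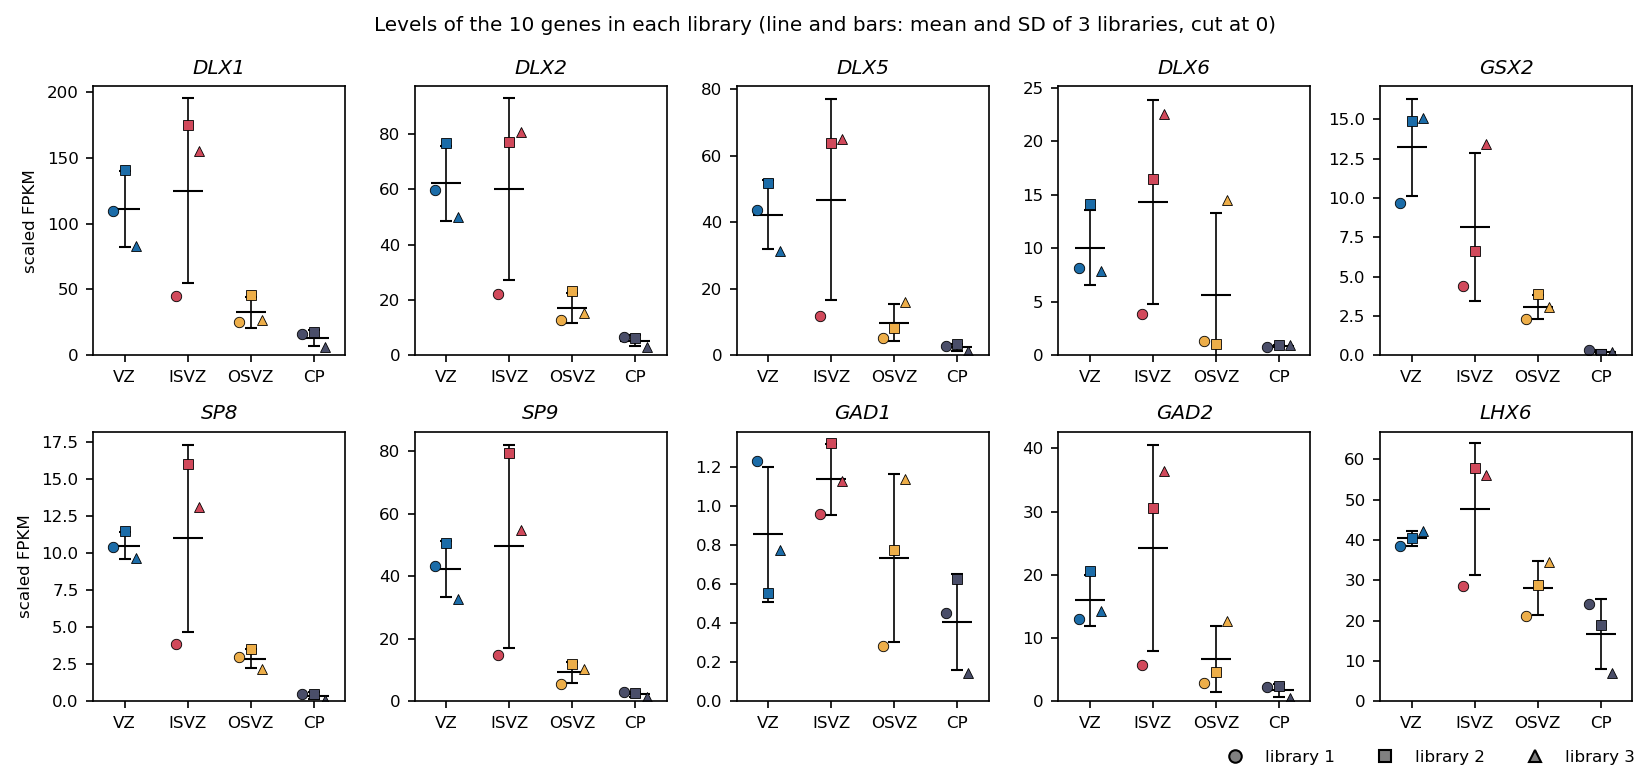
Scaled FPKM of each of the 10 genes in each of the 12 libraries, by layer, with 1 panel and 1 linear axis per gene. Symbols mark libraries 1 to 3, and the lines and bars are the mean and SD of 3 libraries. For all 10 genes ISVZ 1 is the lowest of the ISVZ libraries, and the CP values are low.

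GSX2 (TSDBGID.14984, chromosome 21, 37725098 to 37726688 in the deposited tables) had a lower mean in each layer from the ventricle outward. It stood at 9.66, 14.9 and 15.1 in VZ and at 4.39, 6.65 and 13.4 in ISVZ. In OSVZ it stood at 2.32, 3.87 and 3.04, and in CP at 0.333, 0.0698 and 0.23. No OSVZ library reached an ISVZ library, and no CP library reached an OSVZ library, but ISVZ 3 lay among the VZ libraries. The means were 13.2 ± 3.1, 8.15 ± 4.7, 3.07 ± 0.773 and 0.211 ± 0.133 (SD, n = 3 each), and the layers differed at an adjusted p of 1.8e-05 (limma F test).

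DLX1 and DLX2 are neighbours on chromosome 1, as in other vertebrates, where paired DLX genes share regulatory DNA between them. In the deposited annotation DLX1 (TSDBGID.3901, 153760172 to 153764852) and DLX2 (TSDBGID.4661, 153764840 to 153779347) overlap by 13 bases. DLX1 was the member with the highest mean in VZ, ISVZ and OSVZ, at 109.7, 141 and 83.2 in VZ and at 44.7, 175 and 155 in ISVZ. In OSVZ it was at 25.2, 46.0 and 26.6, and in CP at 16.1, 17.7 and 6.51. ISVZ 2 and 3 exceeded every VZ library, whereas ISVZ 1 lay below every VZ library and inside the OSVZ range. The layer means were 111 ± 28.8, 125 ± 70.3, 32.6 ± 11.6 and 13.4 ± 6.06 (SD, n = 3 each; limma F test, adjusted p = 0.000798).

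DLX2 followed DLX1 closely, at 59.7, 76.5 and 50.0 in VZ and 22.0, 77.1 and 80.6 in ISVZ. Its OSVZ libraries were at 12.6, 23.1 and 15.3 and its CP libraries at 6.78, 6.15 and 3.12. Again the low ISVZ value was that of ISVZ 1, which fell among the OSVZ libraries (F test of limma, adjusted p = 0.000224). The ratio of DLX1 to DLX2 stayed between 1.66 and 2.87 over all 12 libraries while DLX1 itself ran from 6.51 to 175.

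DLX5 and DLX6 form a second neighbouring pair, on chromosome 6, and act after DLX1 and DLX2 in the same lineage. DLX5 (TSDBGID.23316, 102314741 to 102320343) was at 43.6, 51.9 and 31.4 in VZ, at 11.8, 63.7 and 64.9 in ISVZ, at 5.07, 8.35 and 15.9 in OSVZ and at 2.74, 3.28 and 1.25 in CP. ISVZ 2 and 3 were again above every VZ library and ISVZ 1 was among the OSVZ libraries (F test of limma, adjusted p = 0.000672). DLX6 (TSDBGID.22854, 102257779 to 102306402) was at 8.14, 14.1 and 7.92 in VZ, at 3.87, 16.5 and 22.6 in ISVZ, at 1.36, 1.10 and 14.5 in OSVZ and at 0.77, 0.953 and 0.941 in CP. A single OSVZ library, OSVZ 3, therefore held DLX6 at the VZ level while the other OSVZ libraries were near the CP level (F test of limma, adjusted p = 0.0214).

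The DLX6 values carry a limit of their own. An entry named DLX6A-AS-1 (chromosome 6, 102255405 to 102307110), annotated as antisense, covers the whole span of DLX6, and no source used here says that strand was kept in sequencing or counting. Reads of the gene and of its antisense partner then cannot be told apart. The antisense entry was at 181, 164 and 71.1 in VZ, at 34.6, 278 and 202 in ISVZ, at 18.7, 38.0 and 17.0 in OSVZ and at 15.2, 15.2 and 4.28 in CP. Its mean was above that of DLX6 in every layer, and it showed the same low ISVZ 1, but OSVZ 3 was its lowest OSVZ library, whereas OSVZ 3 was the highest for DLX6. It was higher in ISVZ than in CP by 3.5 ± 0.72 (log2, SE; limma, adjusted p = 0.00224). A shorter entry, DLX5-AS-1, covers 61.8% of the DLX5 span and had layer means of only 2.70, 2.93, 0.327 and 0.218.

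SP9 (TSDBGID.3909, chromosome 1, 156189927 to 156213216) was at 43.3, 50.6 and 32.8 in VZ, at 14.8, 79.3 and 54.7 in ISVZ, at 5.36, 12 and 10.3 in OSVZ and at 2.81, 2.57 and 1.36 in CP. Every ISVZ library lay above every OSVZ library, and every OSVZ library above every CP library (F test of limma, adjusted p = 0.000183). SP8 (TSDBGID.23359, chromosome 6, 117582214 to 117622287) was lower, at 10.4, 11.5 and 9.64 in VZ, at 3.87, 16.0 and 13.1 in ISVZ, at 2.96, 3.5 and 2.18 in OSVZ and at 0.514, 0.480 and 0.110 in CP. It had the same order of layers without overlap from ISVZ to OSVZ to CP (F test of limma, adjusted p = 0.000103). The SP8 libraries of VZ agreed closely with each other, with a mean of 10.5 ± 0.956 (SD, n = 3), while those of ISVZ had 11 ± 6.35 (SD, n = 3). CIR1, whose entry overlaps 15.9% of the SP9 span, had means of 24.0 to 29.7 in the 4 layers and was not called by the F test (limma, adjusted p = 0.488).

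LHX6 (TSDBGID.13253, chromosome 2, 96518475 to 96544759), the factor of medial eminence interneurons, had the smallest ISVZ to CP ratio of the 8 transcription factors. It was at 38.5, 40.5 and 42.2 in VZ and at 28.7, 58.0 and 56.1 in ISVZ. In OSVZ it was at 21.2, 28.8 and 34.5, and in CP at 24.1, 18.8 and 7.12. The OSVZ range met the lowest ISVZ library and the highest CP library, so only VZ stood clear of both OSVZ and CP. The means were 40.4 ± 1.84, 47.6 ± 16.4, 28.2 ± 6.65 and 16.7 ± 8.68 (SD, n = 3 each; limma F test, adjusted p = 0.018). In CP its mean was the highest of the 10 genes, above that of DLX1. NKX2-1, the factor that acts upstream of LHX6 in medial eminence progenitors, was at most 0.365 in any library.

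GAD2 (TSDBGID.13642, chromosome 2, 12006625 to 12102041) was at 13.0, 20.6 and 14.3 in VZ, at 5.72, 30.6 and 36.5 in ISVZ, at 2.86, 4.66 and 12.7 in OSVZ and at 2.25, 2.37 and 0.533 in CP. Its ISVZ libraries spread the most of the 10 genes, and OSVZ 3 came close to the lowest VZ library (F test of limma, adjusted p = 0.00646). GAD1 (TSDBGID.2767, chromosome 1, 152399502 to 152507623) was near or below 1 throughout, at 1.23, 0.556 and 0.775 in VZ, at 0.958, 1.32 and 1.13 in ISVZ, at 0.283, 0.775 and 1.14 in OSVZ and at 0.450, 0.624 and 0.143 in CP. It reached 1 in 4 of 12 libraries and was not called by the F test (limma, adjusted p = 0.145).

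The entry for GAD1 shares its locus with another. ERICH2 (TSDBGID.3894) spans 108107 bases within the GAD1 entry and overlaps all but its edge, while RefSeq (TupChi_1.0) gives the genes shorter spans of 53931 bases for GAD1 and 33451 for ERICH2. The ERICH2 entry was at 12.8, 18.9 and 15.8 in VZ, at 8.80, 29.0 and 20.5 in ISVZ, at 7.16, 12 and 29.6 in OSVZ and at 9.15, 10.6 and 6.15 in CP. It was not called by the F test (limma, adjusted p = 0.306) or between ISVZ and CP (0.97 ± 0.47, log2, SE, limma, adjusted p = 0.115). How reads of this locus were divided between the entries is not stated in any source used here, and the GAD1 level is uncertain.

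The comparison of ISVZ with the mean of the 3 other layers called 6 of the 10 genes higher and 0 lower, where 6.03% of all genes tested were called higher and 7.13% lower. The 6 were DLX1, DLX2, DLX5, GSX2, SP8 and SP9. Their log2 differences, on the log2(scaled FPKM + 1) scale, ran from 1.04 ± 0.25 for GSX2 (adjusted p = 0.0216) to 1.91 ± 0.41 for SP9 (adjusted p = 0.0125; limma, SE). GAD2 was 1.60 ± 0.51 above the other layers (adjusted p = 0.0617) and DLX6 1.52 ± 0.59 (adjusted p = 0.11), neither past the threshold. The median difference over the 10 genes was 1.5, beside 0 over all genes tested. None of the 10 had all 3 ISVZ libraries above all 9 others, which 0.66% of all genes tested did. All 6 calls were lost without ISVZ 2 (adjusted p = 0.0549 to 0.142) and without ISVZ 3 (adjusted p = 0.085 to 0.178), and that of DLX5 also without VZ 3 (0.0528) or CP 3 (0.0506). Without ISVZ 1, and likewise without OSVZ 3, 8 genes were called, with DLX6 and GAD2 added.

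Of the contrasts with single layers, only that with CP called any of the 10 genes. These contrasts share the ISVZ libraries, so they are not independent of each other. All 10 genes were higher in ISVZ than in CP (limma), where 24.2% of all genes tested were called higher, and all 10 had every ISVZ library above every CP library, where 29.9% of all genes did. The mean level in ISVZ was 38.7 times that in CP for GSX2, 29.9 times for SP8, 22.1 times for SP9 and 19.3 times for DLX5. It was 9.30 times for DLX1, 2.85 times for LHX6 and 2.80 times for GAD1. The median log2 difference was 2.96, beside 0.04 over all genes tested. For 9 genes the call held in each of 22 alternative analyses. GAD1, at 0.61 ± 0.22 (log2, SE; limma, adjusted p = 0.0394), lost its call without any of VZ 3, ISVZ 1, ISVZ 2, ISVZ 3, OSVZ 2, CP 1 or CP 3 (adjusted p = 0.0506 to 0.144), with quantile normalisation (0.0588) and with no filter (0.106).

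Between ISVZ and VZ, 0 of the 10 genes were called in either direction (limma), where 1.54% of all genes tested were called higher in ISVZ and 7.18% lower. The largest difference was that of GSX2, lower in ISVZ at -0.73 ± 0.31 (log2, SE; limma, adjusted p = 0.182). The differences of the other 9 genes lay between -0.24 and 0.26, with standard errors of 0.22 to 0.72, so differences of that size were not detectable. Without ISVZ 3, GSX2 was called lower in ISVZ (-1.12, adjusted p = 0.0194).

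Between ISVZ and OSVZ, 0 of the 10 genes were called (limma), where 0.121% of all genes tested were called higher and 0.482% lower. All 10 means were higher in ISVZ, and the median log2 difference was 1.57, beside 0 over all genes tested. The adjusted p of the 10 genes lay between 0.0583 for SP9 and 0.451 for GAD1 (limma). GSX2, SP8 and SP9 had every ISVZ library above every OSVZ library, as did 11.5% of all genes tested. Without ISVZ 1 the same contrast called 7 of the 10 genes, namely DLX1, DLX2, DLX5, GSX2, SP8, SP9 and GAD2, with log2 differences of 1.38 to 2.78 (adjusted p = 0.00215 to 0.032). Without that library the contrast called 556 genes in all, against 85 with every library. ISVZ 1 was the ISVZ library in which these genes were lowest, so its removal is no independent support.

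**Figure D2:**
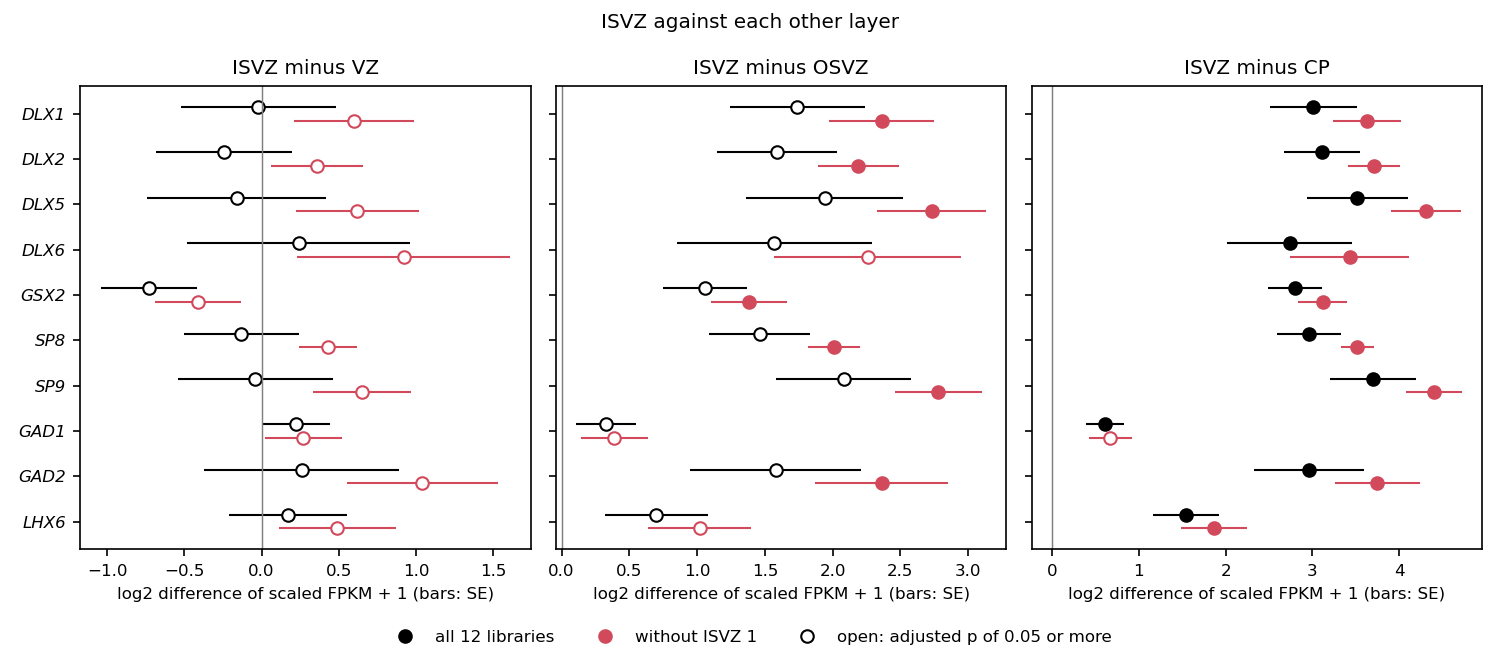
Log2 difference of ISVZ from VZ, from OSVZ and from CP for each of the 10 genes, with bars of 1 SE, from all 12 libraries (black) and without ISVZ 1 (red). Filled points passed an adjusted p of 0.05. With all libraries the differences from VZ lie around 0 and those from CP run from 0.61 for GAD1 to 3.70 for SP9. The scale is log2(scaled FPKM + 1). With a pseudocount of 0.1 the difference from CP was larger for GSX2 (4.68) than for SP9 (4.16).

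From VZ to OSVZ, 6 of the 10 genes fell (DLX1, DLX2, DLX5, GSX2, SP8 and SP9; limma), where 16.2% of all genes tested were called lower. SP9 fell by 2.13 on the log2(scaled FPKM + 1) scale (limma, adjusted p = 0.00866). On that scale DLX5 fell by 2.1 (adjusted p = 0.0189) and SP8 fell by 1.58 (adjusted p = 0.00843). All VZ libraries exceeded all OSVZ libraries for 8 genes, the exceptions being DLX6 and GAD1, where 24.4% of all genes tested showed this. DLX1 lost its call without VZ 1, VZ 2, OSVZ 1 or OSVZ 3 (adjusted p = 0.0508 to 0.0812) and DLX5 without VZ 2 or OSVZ 1 (0.068 and 0.071).

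From OSVZ to CP, 4 genes fell (DLX2, GSX2, SP8 and SP9; limma), where 17.3% of all genes tested were called lower. On the log2(scaled FPKM + 1) scale GSX2 fell by 1.74 (limma, adjusted p = 0.0017) and SP8 fell by 1.5 (adjusted p = 0.0102). Both genes were below 1 in CP, so the size of these falls depends on the pseudocount of 1. With a pseudocount of 0.1 the differences were -3.43 for GSX2 and -2.8 for SP8. All OSVZ libraries exceeded all CP libraries for 8 genes, the exceptions being GAD1 and LHX6, where 25.6% of all genes tested showed this. The call of DLX2 was lost without OSVZ 2 or CP 3 (adjusted p = 0.0854 and 0.0844), and that of SP9 without OSVZ 2, OSVZ 3, CP 2 or CP 3 (0.0598 to 0.0979). Without ISVZ 1, which enters only the shared estimate of spread, 7 genes were called.

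By the SD of log2(scaled FPKM + 1), ISVZ was the layer whose libraries varied most for 7 of the 10 genes. The exceptions were DLX6, with an SD of 1.62 in OSVZ against 1.21 in ISVZ, LHX6, with 0.86 in CP against 0.56, and GAD1, whose SD of 0.12 in ISVZ was its lowest. The pseudocount of 1 damps this spread where values are near or below 1, as in CP for several genes and throughout for GAD1. As highest over lowest library, GSX2 varied more in CP (4.76) than in ISVZ (3.05), and so did SP8 (4.69 and 4.14). The median SD of log2(scaled FPKM + 1) over the 10 genes was 1.06 in ISVZ, 0.32 in VZ, 0.44 in OSVZ and 0.43 in CP. Over all genes tested it was 0.17 or 0.18 in each layer. In ISVZ, 9 of the 10 genes lay above the 90th percentile of all genes, from the 95.0 percentile for LHX6 to the 99.5 percentile for DLX5 and GAD2, and GAD1 at the 31.6 percentile was the exception.

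ISVZ 1 was the lowest ISVZ library for 10 of 10 genes, as it was for 34.8% of all genes tested. The mean of ISVZ 2 and 3 was 5.86 times the ISVZ 1 level for GAD2, 5.47 times for DLX5, 5.05 times for DLX6 and 4.52 times for SP9. It was 3.70 times for DLX1, 1.99 times for LHX6 and 1.28 times for GAD1. ISVZ 1 was below every VZ library for 9 genes and within the OSVZ range for 7, whereas both other ISVZ libraries were above every VZ library for 8. For 8 genes the deposited confidence bounds of ISVZ 1 lay wholly below those of ISVZ 2 and ISVZ 3. DLX1, for example, had bounds of 42.4 to 48.4 in ISVZ 1, 169 to 185 in ISVZ 2 and 149 to 164 in ISVZ 3. How common these positions and separate bounds are among all genes tested was not computed.

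**Figure D3:**
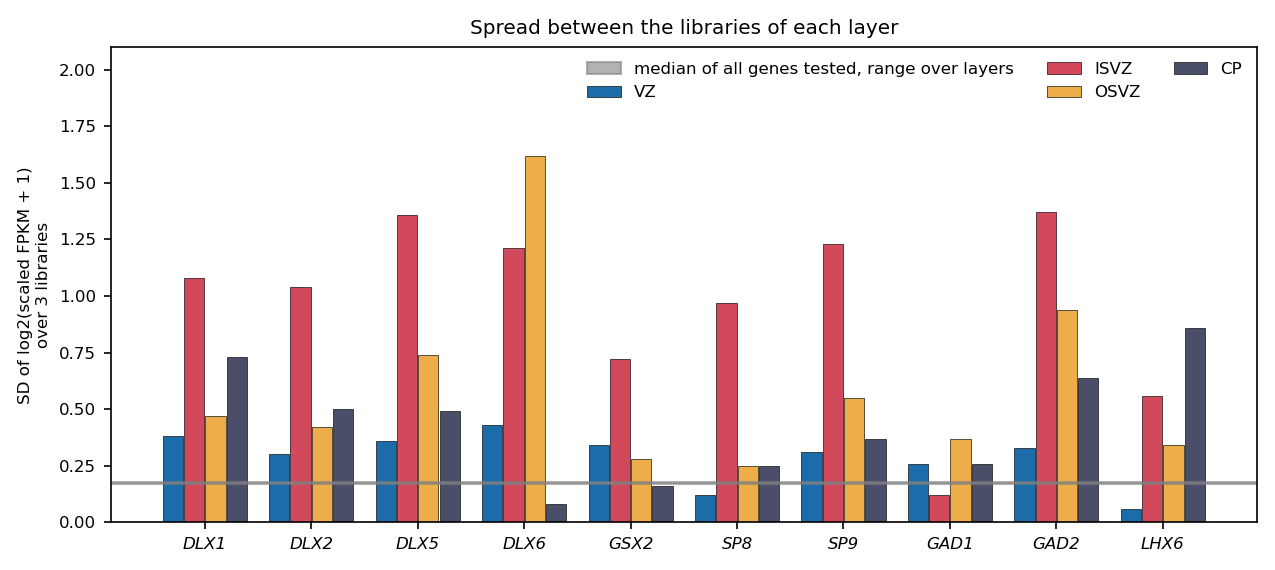
Bars give the SD over the 3 libraries of a layer, on the log2(scaled FPKM + 1) scale, for each of the 10 genes, and the grey line the median over all genes tested. The ISVZ bars reach 1.37, with GAD1 at 0.12, and the VZ bars stay at or below 0.43. The tallest bar is that of DLX6 in OSVZ, at 1.62.

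Genes of other lineages also set ISVZ 1 apart. Of 9 pallial factors tested, 8 were highest of the ISVZ libraries in ISVZ 1, as were 38.8% of all genes tested. NEUROD6, a factor of young excitatory neurons, was at 306 in ISVZ 1 against 158 and 154. The summed level of the pallial factors was 570.2 in ISVZ 1 against 287 and 319, and that of the 10 genes 141 against 524 and 499. All 7 vascular genes tested and 6 of 8 microglial genes were also highest there. The vascular sum was 48.5 in ISVZ 1 against 35.6 and 43.2, and the microglial sum 24.1 against 20.7 and 10.8. The part of these other cell types in the low values of ISVZ 1 was not tested.

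A library stood low in other layers as well. CP 3 was the lowest CP library for 8 of the 10 genes, where it was for 32.7% of all genes tested, and OSVZ 1 the lowest OSVZ library for 8, where it was for 31.9%. VZ 2 was the highest VZ library for 7 genes, against 32.6% of all genes tested, and was also the library with the most choroid plexus RNA. Whether that RNA bears on these genes was not tested.

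Ratios between members within a library, which the scaling does not touch, showed where the genes parted. The ratio of DLX5 to DLX1 was 0.368 to 0.397 in VZ, 0.264 to 0.418 in ISVZ and 0.170 to 0.192 in CP. In OSVZ it was 0.201 and 0.181 in libraries 1 and 2 and 0.598 in OSVZ 3. The ratio of GSX2 to DLX1 was 0.038 to 0.182 in VZ, ISVZ and OSVZ and 0.00395 to 0.0354 in CP. GSX2 was close to 0 in CP, with a deposited lower bound of 0 in CP 2 and CP 3, so the CP ratios are imprecise and their separation from the other layers was not established. LHX6 moved the other way, with a ratio to DLX1 of 0.288 to 0.507 in VZ, 0.331 to 0.643 in ISVZ, 0.625 to 1.29 in OSVZ and 1.06 to 1.49 in CP.

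**Figure D4:**
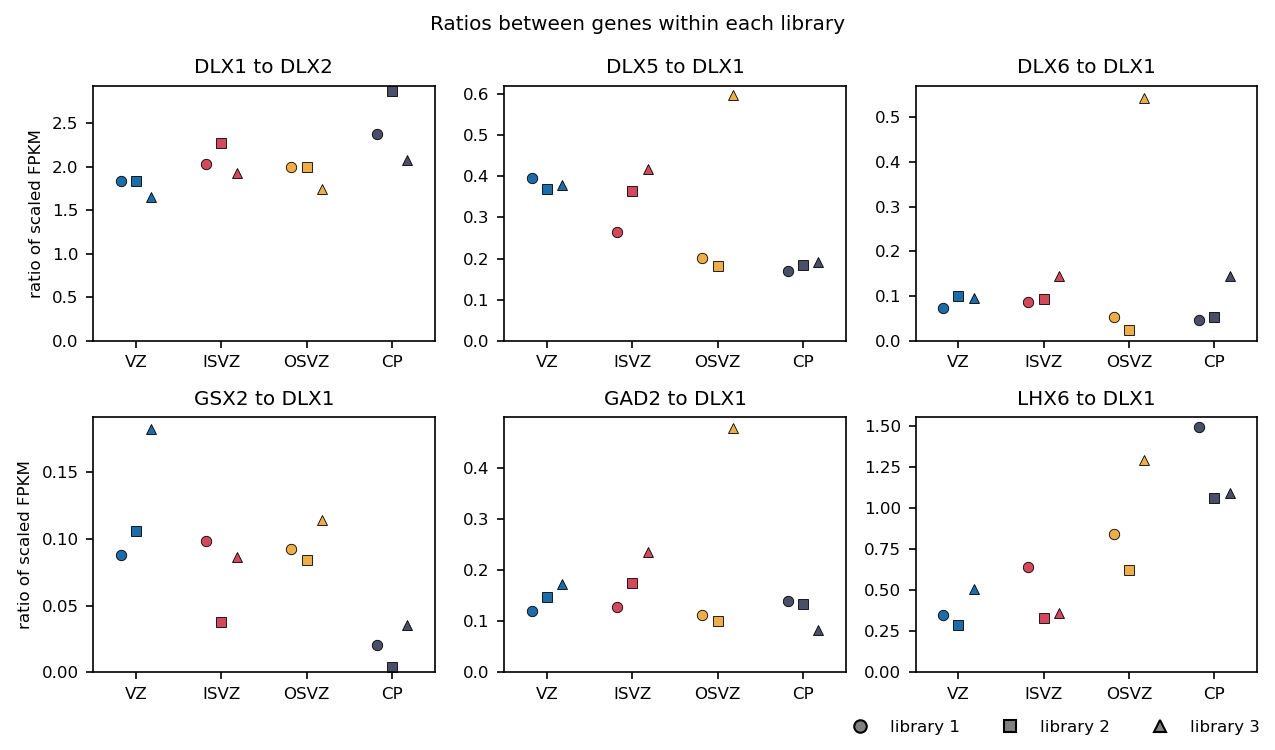
Ratio of scaled FPKM between 2 of the genes in each of the 12 libraries, by layer, on linear axes that start at 0, with symbols for libraries 1 to 3. OSVZ 3 stands above the 11 other libraries for DLX6 to DLX1 (0.544) and GAD2 to DLX1 (0.478), and CP is high for LHX6 to DLX1.

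Single libraries stood apart in some of these ratios. SP9 to SP8 was 12.4 in CP 3 against 1.81 to 5.47 in the 11 others, with SP8 near 0 there, and DLX5 to DLX6 was 7.61 in OSVZ 2 against 1.1 in OSVZ 3. OSVZ 3 was set apart in ratios to DLX1. DLX6 to DLX1 was 0.544 there against 0.0238 to 0.145 in the 11 other libraries, and GAD2 to DLX1 was 0.478 against 0.082 to 0.235. DLX1 and DLX2 in OSVZ 3 lay between the other OSVZ libraries, and SP8 lay below them. Several genes of GABAergic or subpallial cells, singled out after their values were seen, were far higher in OSVZ 3 than in the rest of OSVZ. LHX8, a medial eminence factor of striatal and basal forebrain neurons, was at 23.3 in OSVZ 3 and at most 0.513 in the other 11 libraries. SLC32A1, the vesicular GABA transporter, was at 42.3 against 1.30 to 17.2, and CALB2, the calcium-binding protein calretinin, at 37.5 against 3.5 and 5.36 in the other OSVZ libraries. SIX3, a factor of the lateral eminence, was at 14 in OSVZ 3 against 0.116 and 0.0455 in the other OSVZ libraries, and SST, the neuropeptide somatostatin, at 152 against 18.6 and 48.6. Of the 14 striatal projection neuron genes tested, 13 were highest of the OSVZ libraries in OSVZ 3, as were 40.8% of all genes tested. So were 5 of 6 genes of GABA transport and breakdown and 8 of 13 further lateral and caudal eminence factors. Only 7 of 18 genes of migrating interneurons were, and 0 of 7 medial eminence factors tested, which leave out LHX8. CXCR4 was at 23.8 in OSVZ 3 against 32.3 and 48.1 in the other OSVZ libraries, and HTR3A at 0.418 against 1.4 and 1.04. The part of other GABAergic cells in the OSVZ 3 values was not tested. Without OSVZ 3, DLX6 was called higher in ISVZ than the mean of the other layers (log2 difference 1.83, adjusted p = 0.0147) and lower in OSVZ than in VZ (-2.27, adjusted p = 0.0124; limma).

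Other genes of the subpallium varied in how far they followed the members. Among 13 further transcription factors of the lateral and caudal eminences, 3 were called higher in ISVZ than the mean of the other layers and 0 lower (limma). Of all genes tested, 6.03% were called higher and 7.13% lower in that contrast. Against CP, 9 of the 13 were called higher in ISVZ and 0 lower (limma), where 24.2% and 21.6% of all genes tested were. TSHZ1 was higher in ISVZ than the mean of the other layers by 0.89 ± 0.22 (adjusted p = 0.0218), SALL3 by 0.59 ± 0.16 (adjusted p = 0.0382) and MEIS1 by 0.57 ± 0.17 (adjusted p = 0.0438). All of them had VZ as their highest layer by mean, with SALL3 at 14.3 ± 2.65 in VZ and 6.34 ± 2.01 in ISVZ (SD, n = 3 each). SALL3 was called lower in ISVZ than in VZ (-1.09 ± 0.2, log2, SE, limma, adjusted p = 0.00775), and its CP mean was 0.129. NR2F2, a caudal eminence factor, varied within every layer, from 1.57 to 9.38 within ISVZ, and was not called by the F test (limma, adjusted p = 0.607). Of these 13 factors 8 were lowest of ISVZ in ISVZ 1, as were 34.8% of all genes tested.

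Among the 7 medial eminence factors tested of 10, SOX6 was called higher in ISVZ than the mean of the other layers (0.65 ± 0.16, limma, adjusted p = 0.0237). Its own mean was highest in VZ. Against CP, 1 of the 7 was called higher in ISVZ and 2 lower, where 24.2% and 21.6% of all genes tested were. LMO3, which excitatory cortical neurons also express, was among those lower in ISVZ than in CP (-1.42 ± 0.24, adjusted p = 0.000696). Of 6 genes of GABA transport and breakdown, 0 were called against the other layers (limma), and SLC38A1, a glutamine transporter, was lower in ISVZ than in CP (-0.43 ± 0.12, adjusted p = 0.0141). The vesicular transporter SLC32A1 was not called by the F test.

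Against the other layers, 6.03% of all genes tested were called higher in ISVZ and 7.13% lower. Receptors, peptides and other genes of migrating interneurons gave 3 called higher and 1 lower in ISVZ against the other layers, of 18 tested (limma). The higher genes were PLS3, an actin-bundling protein (1.69 ± 0.46, adjusted p = 0.035), EPHA4, an ephrin receptor (0.79 ± 0.24, adjusted p = 0.0499), and HTR3A, the serotonin receptor subunit of caudal eminence interneurons (0.55 ± 0.17, adjusted p = 0.0497), which was highest in VZ by mean. GPR12 was the lower gene (-0.66 ± 0.13, adjusted p = 0.00986). Against CP, 5 of the 18 were called higher in ISVZ and 3 lower (limma), where 24.2% and 21.6% of all genes tested were. CXCR4, the chemokine receptor of the migratory streams, was among the higher, by 1.57 ± 0.49 (adjusted p = 0.0226). The lower genes were CCK (-3.58 ± 0.85, adjusted p = 0.00512), CALB1 (-2.49 ± 0.37, adjusted p = 0.000243) and GPR12 (-2.0 ± 0.16, adjusted p = 4.04e-06).

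Striatal projection neurons share the subpallial origin but do not migrate into the cortex. Some of the genes listed for them were also present in CP, where BCL11B had a mean of 10.8 and PPP1R1B of 40.8. A call in this list therefore need not come from striatal cells. Of 14 genes tested, 4 were called higher and 0 lower in ISVZ against the other layers (limma). Of all genes tested, 6.03% were called higher and 7.13% lower. EBF1, a factor of early striatal neurons, was at 4.25, 6.13 and 8.73 in ISVZ and at 0.154 to 3.63 in the 9 other libraries, a difference of 1.85 ± 0.31 (adjusted p = 0.00443). RXRG (1.65 ± 0.38), FOXP2 (1.42 ± 0.39) and BCL11B (0.95 ± 0.25) were the others. Against CP, 7 of the 14 were called higher in ISVZ and 2 lower (limma), where 24.2% and 21.6% of all genes tested were. The lower genes were DRD1 (-1.2 ± 0.19, adjusted p = 0.000426) and PPP1R1B (-1.46 ± 0.42, adjusted p = 0.0141), both with their highest mean in CP. ISVZ 1 was the lowest ISVZ library for EBF1 too, but it stayed above all 9 libraries of the other layers.

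Of 9 pallial factors tested, 3 were called higher in ISVZ against the other layers and 0 lower (limma), beside 6.03% and 7.13% of all genes. They were EOMES (1.84 ± 0.23, adjusted p = 0.00102), NEUROG1 (1.25 ± 0.33) and PAX6 (1.17 ± 0.22), and each had its highest mean in VZ and was at 0.761 or less in CP. Oligodendrocyte precursor genes gave 1 higher, OLIG2 (0.92 ± 0.22), and 0 lower of 5 tested. Choroid plexus (4 tested), microglial (8), vascular (7) and erythroid (1) genes gave 0 calls in this contrast by limma, and meningeal genes gave 1 lower of 3, LUM.

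**Figure D5:**
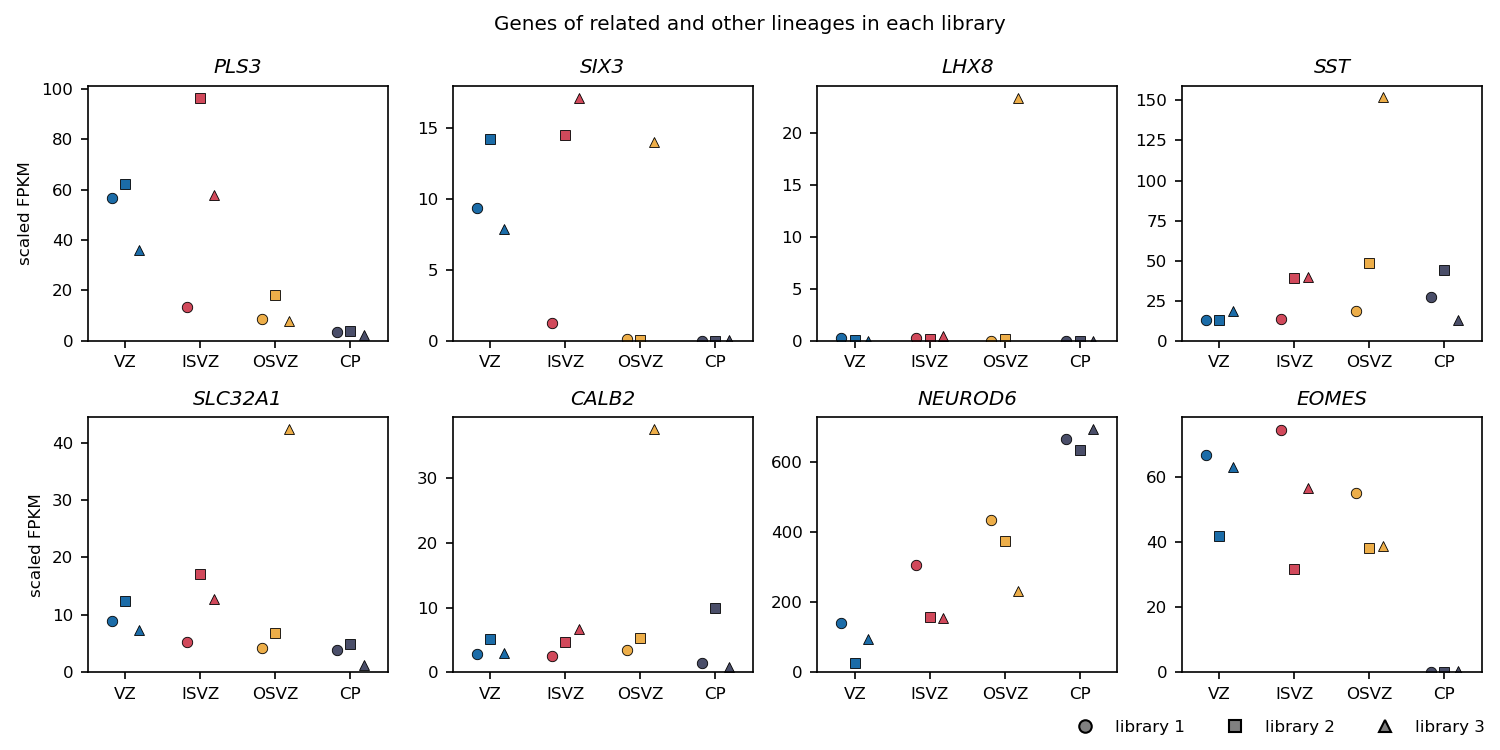
Scaled FPKM of 8 genes of related and other lineages in each of the 12 libraries, by layer, with 1 linear axis per gene and symbols for libraries 1 to 3. LHX8, SST, SLC32A1 and CALB2 are highest in OSVZ 3. In ISVZ 1, PLS3 is low (13.6), and the excitatory lineage genes NEUROD6 (306) and EOMES (74.7) are at their highest of the ISVZ libraries.

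Across the 12 libraries 8 genes that followed the mean of the 10 genes closely were DCBLD2 (Pearson r = 0.972), SVIL (0.970), AG2 (0.970), TSHZ1 (0.966), PIGP (0.964), PAG1 (0.962), PLS3 (0.959) and an entry named TSORF (TSDBGID.3391, 0.958). These are descriptions over 12 points in which libraries share layers, and genes that differ between layers correlate by that alone. With each layer's mean taken out, the closest were OLA1 (0.964), NRXN3 (0.956), MNCB-2990 (0.953), SOX1 (0.948), ACTR10 (0.941), VAPA (0.938), IGFLR1 (0.935) and SARS1 (0.933), so 0 genes stood in both groups of 8. NRXN3, a synaptic adhesion gene, was at 3.75, 14.3 and 10.8 in ISVZ. Among the 10 genes, r with the mean of the other 9 was highest for DLX5 (0.99) and lowest for GAD1 (0.75).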

How the data were processed

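The deposited values are FPKM per gene with lower and upper confidence bounds, also in FPKM, 1 table per library; the authors' processing notes name HISAT2 and Cufflinks without versions. Genome build, annotation and strand setting are not stated in any source used here. Each table held 81792 entries, and entries with the same ID were summed. IDs flagged as failed in any library (4) were dropped, which left 81414. Coordinates are those of the tables, counted from 1. Libraries were scaled by the median ratio to the geometric mean over 10200 genes. Genes at 1 FPKM or more in at least 3 of 12 libraries were tested on log2(scaled FPKM + 1), with a pseudocount of 1, in limma 3.58.1 (R 4.3.3) with 1 model of the 4 layers, 8 residual degrees of freedom and Benjamini-Hochberg adjustment over all 14101 genes. Tests are two-sided at 0.05. The code was tested on simulated data. FPKM tables hold no read counts, so depth is relative only.

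The 10 genes and all lists were chosen with earlier results of these data known; some genes of the lists are not reported here and were left out of their counts and of the correlations. From each list up to 4 genes that passed (by size) and up to 2 that did not could be named, with the 8 nearest genes by each correlation and antisense entries of the 10. NKX2-1, LHX8, SIX3, CALB2, CXCR4, CIR1, ERICH2, VIP, PROX1 and the layer genes, which fall outside that rule, were chosen after their values were seen. So were DRD1, PPP1R1B, CCK and CALB1. RefSeq symbols (TupChi_1.0) matched 8 of the 10 genes and were used for names only, except for the spans of GAD1 and ERICH2. Alternatives covered the pseudocount, filter, scaling, a replicate block, the variance trend and each library left out.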

Additional observations from a re-analysis of the deposited data

How the results depend on the processing

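Of 1314 recomputed differences between layers for single members, 1207 kept direction and side of the threshold, 48 lost a call, 41 gained one and 18 changed sign; the causes were not tested. The sign changes were all in contrasts without a call. ISVZ against VZ ranged, with each library left out in turn, from -0.37 to 0.6 for DLX1, -0.55 to 0.36 for DLX2, -0.56 to 0.62 for DLX5, -0.21 to 0.92 for DLX6, -0.47 to 0.43 for SP8, -0.52 to 0.65 for SP9, -0.2 to 1.04 for GAD2 and -0.0045 to 0.49 for LHX6. OSVZ against VZ ranged from -0.28 to 0.09 for GAD1. Without ISVZ 1 and OSVZ 3 together, chosen after seeing the data, ISVZ against VZ was 0.6 for DLX1, 0.36 for DLX2, 0.62 for DLX5, 0.43 for SP8 and 0.65 for SP9, with 1 member called (DLX6, adjusted p = 0.047), and ISVZ against OSVZ called 277 genes and 7 members.

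Counts for ISVZ against OSVZ, 85 genes as reported, were 19 with a pseudocount of 0.1, 8 with no filter, 299 with a filter of 5 (1 member, SP9), 54 with FPKM as deposited, 38 with equal totals, 156 with quantile normalisation and 2 to 556 with each library left out (0 to 7 members). With no filter, ISVZ against the other layers called 839 genes and 0 members in place of 1856 and 6, ISVZ against VZ 787 in place of 1229 (715 with a filter of 5), and OSVZ against VZ and CP against OSVZ 3 and 1 members in place of 6 and 4. With each library left out, these counts were 512 to 1889 genes and 0 to 8 members for ISVZ against the other layers, 403 to 1374 genes and 0 to 1 members for ISVZ against VZ, 2578 to 3981 genes (3935 as reported) and 4 to 7 members for OSVZ against VZ, and 2 to 7 members for CP against OSVZ. The calls of ISVZ against VZ were 17.7% higher as reported and 31.8% higher with quantile normalisation; over the other alternatives the share ran from 7.1% without ISVZ 2 to 26.2% with a filter of 5, and was 7.4% without VZ 2. The correlation of DCBLD2 with the members, 0.972 as reported, was 0.962 with a pseudocount of 0.1 and 0.967 to 0.978 with each library left out.

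Libraries of different layers share numbers 1 to 3, but no label ties a number to an animal. Of 18 pairs with the same number, 16 had deviations correlated above 0.1 (lowest 0.063), and all 12 libraries were closest to their own number, a hint from the data and not from the design. With the number as a replicate block, ISVZ against OSVZ called 206 genes and 0 members, ISVZ against the other layers 7 members (GAD2 added, adjusted p = 0.0469) and CP against OSVZ 6 in place of 4 (DLX1 and DLX5 added, adjusted p = 0.0421 and 0.045), and GAD1 lost its call against CP (adjusted p = 0.0534).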

Other observations

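VIP, the neuropeptide vasoactive intestinal peptide of caudal eminence interneurons, followed the library number more than the layer. In libraries numbered 1 and 2 it was at 16.2 and 27.2 in VZ, 5.16 and 38.4 in ISVZ, 4.36 and 5.54 in OSVZ and 9.28 and 4.76 in CP. In libraries numbered 3 it was at 0.731, 1.27, 1.82 and 0.0317 in the same order of layers, below each of the 8 other libraries. PROX1, a transcription factor of the same interneurons, was the lowest of its layer in library 3 in VZ (1.84), OSVZ (1.58) and CP (0.0199), and in ISVZ was at 1.79, 7.71 and 2.21. The DLX genes, GAD2 and LHX6 did not follow this split in ISVZ, where library 1 was low. In CP, library 3 was lowest for DLX1, DLX2, DLX5, GAD2 and LHX6 but not for DLX6. In VZ it was lowest for DLX1, DLX2, DLX5 and DLX6 but not for GAD2 or LHX6. Of the 10 genes, 8 were lowest in library 3 in CP and 6 in VZ, against 1 in OSVZ and 0 in ISVZ. VIP and PROX1 were singled out after their values were seen, and no test was made.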
